A study of Rattus norvegicus and Mus musculus with 12 samples.

Results

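The cytosolic ribosomal protein genes were examined in primary chondrocytes from rat and mouse cartilage before and after exposure to interleukin-1β (IL-1β). Members were chosen by name alone: symbols made of Rpl or Rps, a number and at most a short suffix, together with Rpsa, Rplp0, Rplp1, Rplp2 and Fau, with symbols marked -ps (pseudogenes) left out. The rat table held 80 members among 19687 genes, after the identifier with most counts had been kept for each of 6 symbols that were listed more than once. The mouse table held 87 members among 28603 genes. RNA-seq had been performed on articular chondrocytes cultured from newborn animals, SD rats and C57BL/6 mice, in 4 groups of 3 libraries. The rat control group (RC) and the mouse control group (MC) received no IL-1β, whereas the rat model group (RM) and the mouse model group (MM) were exposed to 20 ng/ml IL-1β for 24 h, an inflammatory treatment used as an in vitro model of osteoarthritis. The strain field of the mouse libraries did not read the same in all 6, and the study's methods name C57BL/6. The study's methods describe independent samples and the labels name no animals, so the p-values below measure the spread between these libraries, and fewer cells and less RNA per cell cannot be told apart in such bulk RNA.

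Cytosolic ribosomes carry out nearly all protein synthesis in a cell. Their large subunit is built on proteins named Rpl and their small subunit on proteins named Rps, most of them bound to ribosomal RNA. On the large subunit, Rplp0, Rplp1 and Rplp2 form the P-stalk, the flexible arm that recruits and activates the elongation factors. In mammals most of these genes share a messenger RNA that opens with a C and a run of pyrimidines, the terminal oligopyrimidine (TOP) motif, through which mTOR signalling and the protein Larp1 set how much of the message is translated. Several members have a paralog, a near copy used in particular tissues or under stress. Cartilage cells secrete large amounts of matrix, and IL-1β is known to turn off matrix genes and turn on proteases and inflammatory mediators in them.

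The rat libraries held 20169272 to 25903459 counts and the mouse libraries 16841580 to 20048322 counts. All 10 chondrocyte markers examined were detected in both species, and all 10 were lower with IL-1β in each of them, with summed FPKM (fragments per kilobase of gene length and sequencing depth, as deposited) of 4262 to 4939 in RC, 1511 to 1566 in RM, 2201 to 2251 in MC and 181 to 195 in MM. Summed FPKM of the macrophage and leukocyte markers was 17.3 to 20.9 in RC, 30.6 to 34.9 in RM, 5.69 to 6.95 in MC and 32.2 to 33.6 in MM. That rise was carried by Cd14 and Cd68, while the pan-leukocyte gene Ptprc had 36 counts over the 6 rat libraries and 4 over the 6 mouse libraries, and Itgam was at 0 in mouse. Of this list 2 markers were called higher and 1 lower in rat, and 3 higher and 0 lower in mouse. Mean FPKM of Csf1r was 0.669 in RC, 0.295 in RM, 0.410 in MC and 0.553 in MM. Fibroblast markers summed to 1627 to 1786 in RC, 1152 to 1198 in RM, 377 to 387 in MC and 342 to 344 in MM. These sums hide unlike markers, since of 5 in each species 0 were called higher and 2 lower in rat, and 2 higher and 2 lower in mouse. Mean FPKM of Col3a1 was 917 in RC, 469 in RM, 339 in MC and 313 in MM. The endothelial and erythroid sums stayed at or below 0.504 and 0.460 in every library and the muscle sum at or below 4.30. In mouse the muscle sum was 3.74 to 4.30 in MC and 0.373 to 0.712 in MM, with 2 markers called lower and 0 higher. The part of these shifts in the results below was not tested. Library RC3 stood apart from RC1 and RC2 in its share of counts on the ribosomal protein genes. Over all genes the control pairs with RC1 differed most. Chi-square per degree of freedom was 27.8 for RC1 and RC2, 15.9 for RC1 and RC3 and 12.3 for RC2 and RC3. The rat counts of calls are therefore also given without each library.

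Ribosomal protein transcripts were among the abundant RNAs of both cultures. Over the tested rat members the median of the mean FPKM was 416, and 59 of the 80 members reached a mean of 100. In mouse the corresponding median was 189.6 and 65 of 87 members reached 100. Highest in rat were Rplp0 with 1650 FPKM, Rps2 with 1614, Rpsa with 1313, Rpl41 with 1294 and Rps20 with 1291, as means over 6 libraries. Rps2 and Rps20 are small-subunit proteins near the path of the messenger RNA, Rpl41 is a very short basic protein, and Rpsa is a small-subunit protein first known as a laminin receptor. Rplp1 led the mouse members with a mean of 1780 FPKM, followed by Rplp0 with 1055, Rpl41 with 691.5, Rpl36 with 666 and Rpl17 with 569.9. The gene lengths behind FPKM differed between the tables, with a median of 662 bases for the tested rat members against 1736.5 bases for the mouse members, so FPKM was not compared between species.

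Some genes that every ribosome needs were counted at very low levels. Rplp2 had 0 counts in all 6 rat libraries, which allows at most 3 counts in each, and Rpl38 had 2 counts in all. Rpl24 had 39 counts and Rps10 had 355 over the 6 mouse libraries. Sharing of sequence between genes was measured for 83 mouse members on GENCODE M21 transcripts (GRCm38), as the percent of 50-base stretches of the main transcript that also occur in a transcript of another gene. The median was 60%, and the value was 98.6% for Rps27 and 0% for Rpl39l and Rpl3l. Of the members with the largest mouse changes below, Rpl22l1 had 65.6%, Rpl3 85.6%, Rpl10a 88.1%, Fau 83.5% and Rplp0 41.8%. The part of such sharing in those changes was not tested. Among the 8 members with a mean FPKM under 20 the median was 73.6%, against 55.5% among the other 75. Reads that match several places may have been dropped or split in counting, and how they were handled is not given in the sources used here, so the level of a member with many copies is uncertain. The rat genome of the files' build was not used here, and no such measure was made for rat.

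Low counts also removed a few members from testing. A filter on low counts left 76 of 80 rat members, without Rpl30l1, Rpl38, Rpl3l and Rplp2, and 84 of 87 mouse members, without Rpl24, Rpl3l and Rpl6l. Rpl3l, a muscle form of Rpl3, had 3 counts in rat and 9 in mouse.

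The share of all counts that fell on the members was compared first, which amounts to scaling by library size. In RC it was 2.78%, 2.85% and 3.30%, and in RM 2.73%, 2.68% and 2.86%. RC3 lay above the other 5 libraries, and the groups overlapped, since RM3 exceeded both RC1 and RC2. The means were 2.98% ± 0.279 (SD, n = 3) and 2.75% ± 0.0920 (SD, n = 3), with p = 0.3 in a two-sided exact permutation test, and the difference of -0.222 percentage points shrank to -0.0620 without RC3. In MC the share was 3.59%, 3.51% and 3.43%, and in MM 2.78%, 2.81% and 2.80%, so that every control library lay above every model library. The means were 3.51% ± 0.0785 (SD, n = 3) and 2.80% ± 0.0201 (SD, n = 3), a ratio of 0.796, with an exact permutation p = 0.1, the smallest that 3 against 3 libraries can give. Scaled by library size, the median mouse log2 fold change was -0.33 over the members and -0.30 over all genes tested. Such a median weighs every gene alike, whereas a share of counts is weighted by abundance. No Wilson 95% interval of a single share was wider than 0.0176 percentage points, which covers counting error only.

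**Figure D1:**
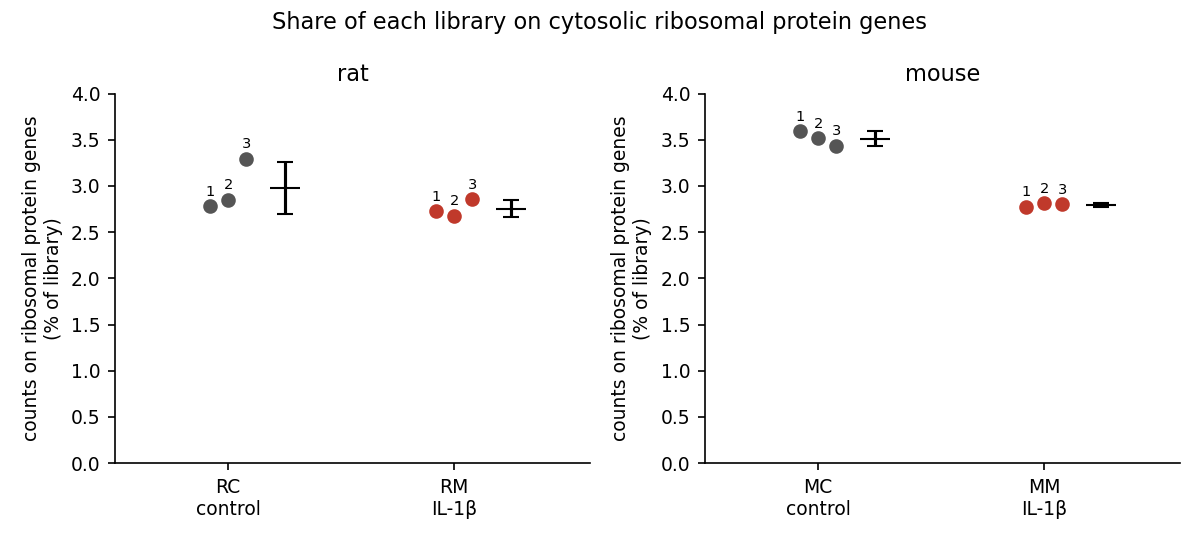
Percent of each library's counts on cytosolic ribosomal protein genes in rat (RC, RM) and mouse (MC, MM); numbered points are libraries and bars show mean ± SD. The mouse control libraries sit at 3.43% to 3.59% and the mouse IL-1β libraries at 2.78% to 2.81%, while RC3 alone stands at 3.30% among rat libraries between 2.68% and 2.86%.

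Within the mouse total the classes of member did not move alike. The share of the large-subunit genes other than the stalk went from 1.76% ± 0.0410 to 1.31% ± 0.0102 (SD, n = 3 each) and that of the small-subunit genes from 1.46% ± 0.0318 to 1.17% ± 0.00741 (SD, n = 3 each). The P-stalk share went the other way, with 0.294%, 0.289% and 0.282% in MC and 0.315%, 0.320% and 0.318% in MM. Groups did not overlap in any of these 3 comparisons, and each gave an exact permutation p = 0.1, the smallest possible. The 10 genes with most counts took 8.30% ± 0.0612 of MC libraries and 9.28% ± 0.158 of MM libraries (SD, n = 3 each). With each total multiplied by its TMM factor, the difference in the members' share was -0.107 percentage points instead of -0.715, still below 0.

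The IL-1β response of single members was then tested with edgeR's quasi-likelihood test against all genes. In rat 0 members were higher and 8 were lower with IL-1β at a Benjamini-Hochberg adjusted p under 0.05, with libraries scaled by TMM (a trimmed mean of ratios between libraries). Of all 13303 rat genes tested, 18.3% were higher and 16.8% were lower by the same rule, so the 8 of 76 members fell below the background in both directions. The median log2 fold change was -0.12 over the members and 0.01 over all genes. Of the 76 members 64 lay below 0, beside 49.3% of all genes. Over 3170 other genes at or above the lower quartile of member abundance the median was 0.01. Under library size alone 0 members were higher and 4 lower, beside 19.3% and 15.7% of all genes. At an unadjusted p under 0.05, 20 members were lower and 0 higher, and the share of all genes at that threshold was not counted. DESeq2 called 15 members lower, beside 4607 of all 13303 genes called in either direction.

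The 8 members downregulated in rat were Rps19, Rps16, Rpl31, Rps15, Rpl41, Rps12, Rpsa and Rpl19. Rps19, a small-subunit protein needed to mature its RNA and the gene most often mutated in Diamond-Blackfan anaemia, stood at 55.6, 64.3 and 86.2 CPM (counts scaled to a common TMM-adjusted library size) in RC and at 47.6, 45.3 and 58.5 in RM. RM3 exceeded RC1, so the groups overlapped, and the log2 fold change was -0.44 ± 0.15 (SE, adjusted p = 0.046). Rps16 stood at 934, 1068 and 1213 CPM in RC and at 865, 814 and 902 in RM, with a log2 fold change of -0.32 ± 0.091 (SE, adjusted p = 0.021). Rpsa stood at 1328, 1453 and 1583 CPM in RC and at 1197, 1169 and 1288 in RM, with a change of -0.26 ± 0.075 on the log2 scale (SE, adjusted p = 0.023). For both of these genes every RM library lay below every RC library, and RC3 was the highest library.

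The remaining 5 had changes between -0.28 for Rpl31 and -0.25 for Rpl19 on the log2 scale. Calls in rat rested on single libraries. Without RC3, without RM1 or without RM2, 0 members were lower. Without RC1 there were 35 lower, and the median log2 fold change of the members ran from -0.19 without RC1 to -0.04 without RC3. Without RC2 or without RM3, 5 were lower. Calls over all genes, in either direction, moved as well. They were 6251 of 13431 without RC1, 3854 of 13502 without RC2 and 3392 of 13496 without RC3. Without RM1, RM2 and RM3 they were 3320 of 13500, 3303 of 13491 and 3741 of 13461. The log2 fold changes of the 76 ran from -0.53 for Rps9, which was not called, to 0.11 for Rpl21, and 0 met the study's criteria for a differentially expressed gene, taken here as unadjusted p under 0.05, FPKM of at least 1 and a change of at least 0.85, read on the log2 scale although the study's methods do not name that scale. Of all rat genes 4.64% met them upward and 3.9% downward.

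The mouse response was wider and ran in both directions. At an adjusted p under 0.05 with TMM scaling, 18 members were higher, 37 were lower and 29 passed in neither direction, while 37.4% of all 14774 genes tested were higher and 37.7% lower. The median log2 fold change was -0.05 over the members and -0.02 over all genes. Over 735 other genes at or above the lower quartile of member abundance it was 0.26 (SD 2.00 over genes). Scaled by library size alone, 4 members were higher and 76 were lower, beside 25% and 54.7% of all genes, with a median of -0.33 over the members and -0.30 over all genes. The TMM factors, 1.099 to 1.104 in MC and 0.905 to 0.911 in MM account for the shift between these scalings, and the direction of members with small changes depended on the choice. Only Fau, Rplp0, Rplp2 and Rps27l were higher under both scalings. By the same reading of the study's criteria 0 members were upregulated and 3 downregulated, beside 12.6% and 13% of all genes.

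**Figure D2:**
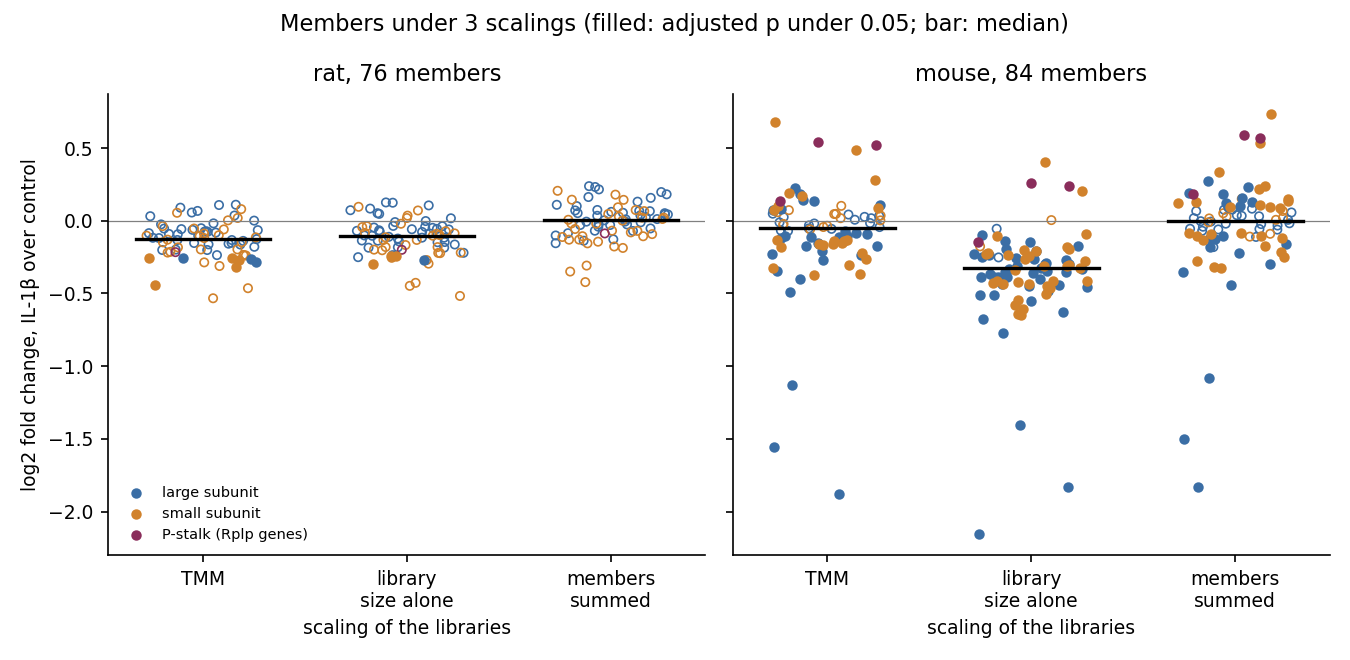
Log2 fold change (IL-1β over control) of each tested member in rat (76) and mouse (84) under TMM, library size alone and the members' own summed counts; filled points had an adjusted p under 0.05, colours mark the subunit and bars the median. In mouse the medians sit at -0.05, -0.33 and 0.00, and Rpl22l1, Rpl3 and Rpl10a lie far below the rest under all 3. The members' own summed counts cannot show a shift of the whole family.

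To set each member against its family without a choice of outside scaling, the summed counts of the members served as the library size. This makes the family's total equal between libraries, so a shift of the whole family cannot show on that scale. In rat 0 members were then higher and 0 lower by edgeR, beside 21.2% and 8.59% of all genes on that scale, and 3 had an unadjusted p under 0.05. In mouse 25 members were higher than the family, 25 were lower and 34 passed in neither direction, beside 39.6% and 34.7% of all genes. The SD of the log2 fold changes over members was 0.35 in mouse and 0.13 in rat, beside 1.53 and 0.71 over all genes. The quartiles of the members lay closer together, at -0.11 and 0.10 in mouse and -0.08 and 0.07 in rat. Replicates also varied less in mouse, with a common biological coefficient of variation of 0.0318 against 0.106 in rat, so that smaller changes could pass the test there.

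Rpl3, Rpl10a and Rpl22l1 were the 3 members downregulated most in mouse. Rpl3, which lies near the catalytic centre of the large subunit (GRCm38 chr15:80077791-80091868, minus strand), stood at 787, 759 and 718 CPM in MC and at 252, 264 and 255 in MM. That is a fold of 0.341, or -1.55 ± 0.031 on the log2 scale (SE, adjusted p = 6.0e-49). Rpl10a, a large-subunit protein at the exit side for transfer RNA (chr17:28328471-28331033, plus strand), stood at 462, 459.6 and 449 CPM in MC and at 203, 213 and 211 in MM, a change of -1.13 ± 0.031 (SE, adjusted p = 3.7e-41).

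For both genes every MM library lay far below every MC library. Rpl22l1, the paralog of Rpl22 (chr3:28805436-28807424, plus strand), was a minor transcript, at 11.3, 10.4 and 11.3 CPM in MC and 3.42, 2.88 and 2.64 in MM. Its change was -1.88 ± 0.15 on the log2 scale (SE, adjusted p = 3.3e-18). The common form Rpl22 stood at 206, 204 and 195.1 CPM in MC and at 194.7, 191.5 and 191.0 in MM, with an adjusted p of 0.068.

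Next lowest were Rpl10 and Rpl23a. Rpl10, a late-joining large-subunit protein on the X chromosome, stood at 807, 769.6 and 758 CPM in MC and at 550.1, 565 and 546 in MM, a log2 fold change of -0.49 ± 0.028 (SE, adjusted p = 1.9e-24). Rpl23a, which sits at the mouth of the exit tunnel, changed by -0.40 ± 0.094 (SE, adjusted p = 0.00013). Rpl4, which lines that tunnel, changed by -0.35 ± 0.027 (SE, adjusted p = 1.6e-18). All 3 kept this direction under the other scalings.

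The pseudogenes of these members were looked at after their values were seen. Of 165 mouse symbols marked -ps, 34 passed the filter, and 1 was higher and 3 lower at an adjusted p under 0.05. Rpl3-ps1 had 514 counts and a log2 fold change of -1.53 ± 0.17 (SE), beside -1.55 for Rpl3. Rpl10a-ps1 had 877 counts and a log2 fold change of -1.14 ± 0.13 (SE), beside -1.13 for Rpl10a. The third was Rpl17-ps5 with 267 counts and -0.66 ± 0.23 (SE), where Rpl17 itself had -0.09, and the one that was higher was Rps16-ps2 with 0.25 ± 0.11 (SE), where Rps16 had 0.08. Transcription of a pseudogene and reads of its parent gene placed there cannot be told apart in these counts.

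On the rising side stood Fau, the P-stalk and Rps27l. Fau encodes a ubiquitin-like protein fused to a small-subunit protein (chr19:6057844-6059524, plus strand). It stood at 266, 268 and 265 CPM in MC and at 419, 432 and 431 in MM, and its log2 fold change was 0.68 ± 0.030 (SE, adjusted p = 3.7e-30), or 0.40 by library size alone. Every MM library lay above every MC library.

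All 3 stalk genes rose under TMM, and Rplp1 turned to -0.15 by library size alone. Rplp0, the scaffold of the stalk (chr5:115559467-115563727, plus strand), stood at 1472, 1465 and 1408 CPM in MC and at 2107, 2114 and 2095 in MM, a log2 fold change of 0.54 ± 0.0245 (SE, adjusted p = 2.0e-29). Rplp2 (chr7:141447370-141451585, plus strand) stood at 336, 329 and 311 CPM in MC and at 453, 475 and 469 in MM, a change of 0.52 ± 0.031 (SE, adjusted p = 1.3e-23). Rplp1 (chr9:61913284-61914542, minus strand) stood at 869, 836 and 840.5 CPM in MC and at 919.8, 939 and 931 in MM, a smaller change of 0.13 ± 0.026 (SE, adjusted p = 8.7e-06). The stalk proteins end in one shared acidic tail that touches the elongation factors. It is shown by the last 51 coding bases with the stop codon (GENCODE M21, GRCm38), where the 37 bases common to all 3 genes are in capitals:
Rplp0: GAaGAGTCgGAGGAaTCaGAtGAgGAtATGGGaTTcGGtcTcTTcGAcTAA
Rplp1: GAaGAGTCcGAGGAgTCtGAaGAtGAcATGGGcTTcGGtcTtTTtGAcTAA
Rplp2: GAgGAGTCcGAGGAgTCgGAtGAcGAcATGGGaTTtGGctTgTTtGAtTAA

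**Figure D3:**
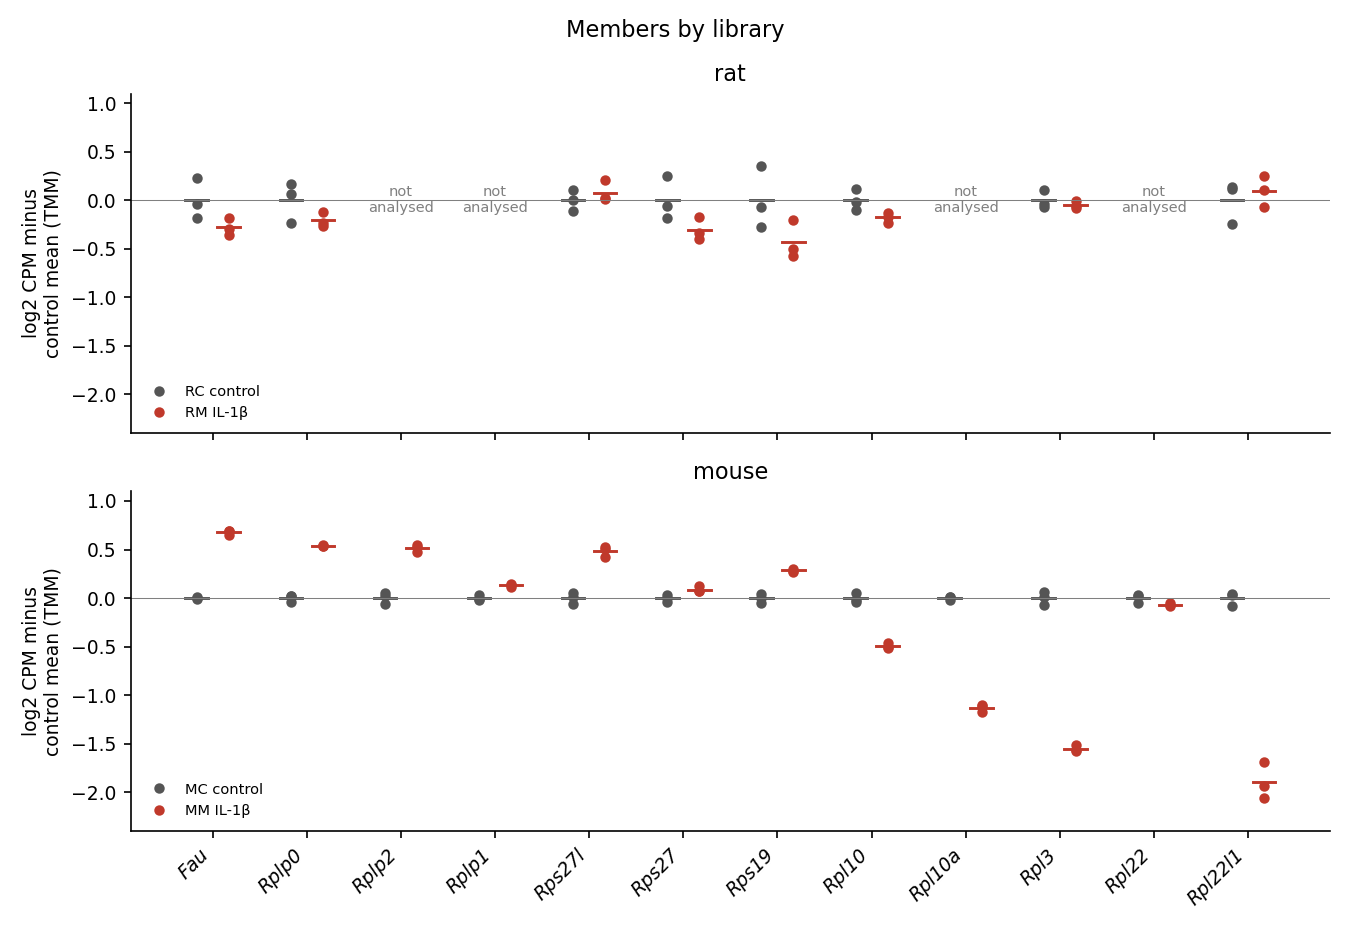
Log2 CPM (TMM) of 12 members in each library, minus the mean of the control libraries of the same species; points are libraries and bars group means. In mouse the IL-1β libraries of Fau, Rplp0, Rplp2 and Rps27l lie above all control libraries (mean changes 0.49 to 0.68) and those of Rpl10a, Rpl3 and Rpl22l1 below them (-1.13 to -1.88), and rat Fau, Rplp0, Rps27l, Rpl3 and Rpl22l1 overlap between groups.

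Rps27l and Rps27 are paralogs whose codons give the same amino acid at 81 of 84 positions, and their values are set side by side without a test between them. Rps27l (chr9:66946086-66949516, plus strand) is known as a target of p53, and Rps27 (chr3:90212522-90213651, minus strand) is the common form of this small-subunit zinc-finger protein. In mouse Rps27l stood at 96.8, 89.1 and 93.6 CPM in MC and at 134, 132 and 125 in MM, a log2 fold change of 0.49 ± 0.041 (SE, adjusted p = 6.9e-17). Rps27 stood at 239.8, 233 and 246 CPM in MC and at 251, 251 and 260.8 in MM, with 0.09 ± 0.032 (SE, adjusted p = 0.015), and this turned to -0.19 by library size alone. Set against the family, the changes were 0.54 for Rps27l and 0.13 for Rps27. The coding sequences below, both of 255 bases with the stop codon (GENCODE M21, GRCm38), have 194 bases in common, and the 61 that differ are in capitals:
Rps27: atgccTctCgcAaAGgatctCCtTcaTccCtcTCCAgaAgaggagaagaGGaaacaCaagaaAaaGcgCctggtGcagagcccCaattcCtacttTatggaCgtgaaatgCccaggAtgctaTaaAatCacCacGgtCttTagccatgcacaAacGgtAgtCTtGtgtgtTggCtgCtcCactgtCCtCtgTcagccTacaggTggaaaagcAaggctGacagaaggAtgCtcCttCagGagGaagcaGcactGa
Rps27l: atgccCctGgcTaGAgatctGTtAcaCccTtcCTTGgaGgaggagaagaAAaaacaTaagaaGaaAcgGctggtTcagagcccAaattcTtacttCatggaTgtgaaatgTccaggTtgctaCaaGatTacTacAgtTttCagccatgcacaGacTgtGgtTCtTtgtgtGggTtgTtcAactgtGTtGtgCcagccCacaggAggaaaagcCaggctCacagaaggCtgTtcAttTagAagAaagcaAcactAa

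Differences are spread along the sequence, and 22.4% of 50-base stretches of the Rps27l transcript occurred in another gene's transcript against 98.6% for Rps27. In rat neither gene passed the test, with log2 fold changes of 0.08 ± 0.086 for Rps27l and -0.31 ± 0.11 for Rps27 (SE, adjusted p = 0.51 and 0.053).

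Other paralogs were followed in both species. Of the 8 paralogs tested in rat (Rpl10l, Rpl22l1, Rpl39l, Rpl7l1, Rps10l1, Rps18l1, Rps27l and Rps4y2) 0 passed the edgeR test in either direction, 0 had an unadjusted p under 0.05, and their log2 fold changes lay between -0.20 for Rpl10l and 0.11 for Rpl7l1. Rpl30l1 was at 0 in every rat library. In mouse 2 of the 5 tested were higher (Rps27l and Rpl7l1) and 2 were lower (Rpl22l1 and Rps4l), near the 37.4% and 37.7% of all mouse genes. Rpl7l1, which works in ribosome assembly, had 0.14 ± 0.042 under TMM (SE, adjusted p = 0.0029) and -0.14 by library size alone. Rpl39l, known from germ cells, had 0.03 ± 0.14 (SE, adjusted p = 0.87). Rps4l is annotated as a transcribed processed pseudogene in GENCODE M21, and Rpl6l, Rps3a2 and Rps3a3 as processed pseudogenes, so these 4 match the naming rule without being protein-coding genes there.

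Members with known roles outside the ribosome were taken as a group for both species. Rpl5 and Rpl11, which bind Mdm2 and stabilise p53 when ribosome assembly fails, had TMM log2 fold changes of 0.11 ± 0.029 (adjusted p = 0.00064) and -0.06 ± 0.031 (adjusted p = 0.093) in mouse. Both were lower in mouse by library size alone, at -0.17 and -0.33. In rat Rpl5 and Rpl11 had 0.03 ± 0.099 and 0.00 ± 0.088 (SE, adjusted p = 0.84 and 0.996). Rps6, the substrate of S6 kinase, fell by 0.17 in mouse (SE 0.030, adjusted p = 1.1e-06) and had -0.46 ± 0.20 in rat (SE, adjusted p = 0.092), where it had only 1771 counts in all. Rpl13a, part of a translational silencing complex in interferon-treated myeloid cells, had 0.03 ± 0.097 in mouse and -0.16 ± 0.16 in rat (SE, adjusted p = 0.77 and 0.46). Rps3, which also binds the p65 subunit of NF-κB, had 0.17 ± 0.030 under TMM in mouse (SE, adjusted p = 5.7e-07), -0.11 by library size alone, and -0.10 ± 0.080 in rat (SE, adjusted p = 0.36).

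Whether the IL-1β response of a member differed between species was tested directly, as the mouse log2 fold change minus the rat one, on 10950 genes matched by symbol. Of 70 members tested in both, in 15 the mouse log2 fold change was above the rat one, in 5 it was below and 50 passed in neither direction, beside 31.4% and 32.3% of all genes. Without RC3 these counts were 12 above and 9 below, and without RC1 they were 29 and 5, and the shares of all genes in these fits were not counted. By library size alone 3 lay above and 33 below, beside 20% and 49.5% of all genes. The 5 were Rpl3, Rpl22l1, Rpl10, Rpl4 and Rps23, all with a lower log2 fold change in mouse. For Rpl3 the difference was -1.50 ± 0.077 (SE, adjusted p = 3.5e-11). Rat Rpl3 stood at 892, 911 and 1006 CPM in RC and at 882, 897 and 931 in RM, where the groups overlapped (log2 fold change -0.05 ± 0.065, SE, adjusted p = 0.58). Rat Rpl22l1 likewise overlapped between groups, at 59.8, 46.6 and 60.6 CPM in RC and at 52.7, 65.6 and 59.3 in RM, and its difference between species was -1.97 ± 0.19 (SE).

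Among the members with the larger value in mouse, Fau had a difference of 0.97 ± 0.11 and Rplp0 of 0.76 ± 0.11 on the log2 scale (SE). Rat Fau stood at 194, 214 and 257 CPM in RC and at 179, 171 and 194.3 in RM. Rat Rplp0 stood at 1644, 2016 and 2159 CPM in RC and at 1636, 1608 and 1766 in RM. Neither was called in rat, with adjusted p = 0.051 for Fau and 0.098 for Rplp0. Under library size alone Fau, Rplp0 and Rps19 were the 3 members still larger in mouse, with differences of 0.67, 0.46 and 0.43.

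Rps19, Rps16 and Rpl41 were called in opposite directions, lower in rat and higher in mouse under TMM. Each of these rat calls was lost without RC3, without RM1 or without RM2, those of Rps19 and Rpl41 also without RC2, and that of Rpl41 also without RM3. Mouse Rps19 stood at 386, 376 and 362 CPM in MC and at 451, 455 and 462 in MM, a log2 fold change of 0.28 ± 0.030 (SE, adjusted p = 3.4e-13). By library size alone that change was 0.00, and those of Rps16 and Rpl41 turned to -0.20 each, so the opposite calls did not hold for these genes under that scaling. Set against the family Rps19 remained higher in mouse, by 0.33 (edgeR adjusted p = 4.4e-13 for that fit), with -0.31 in rat (adjusted p = 0.085).

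**Figure D4:**
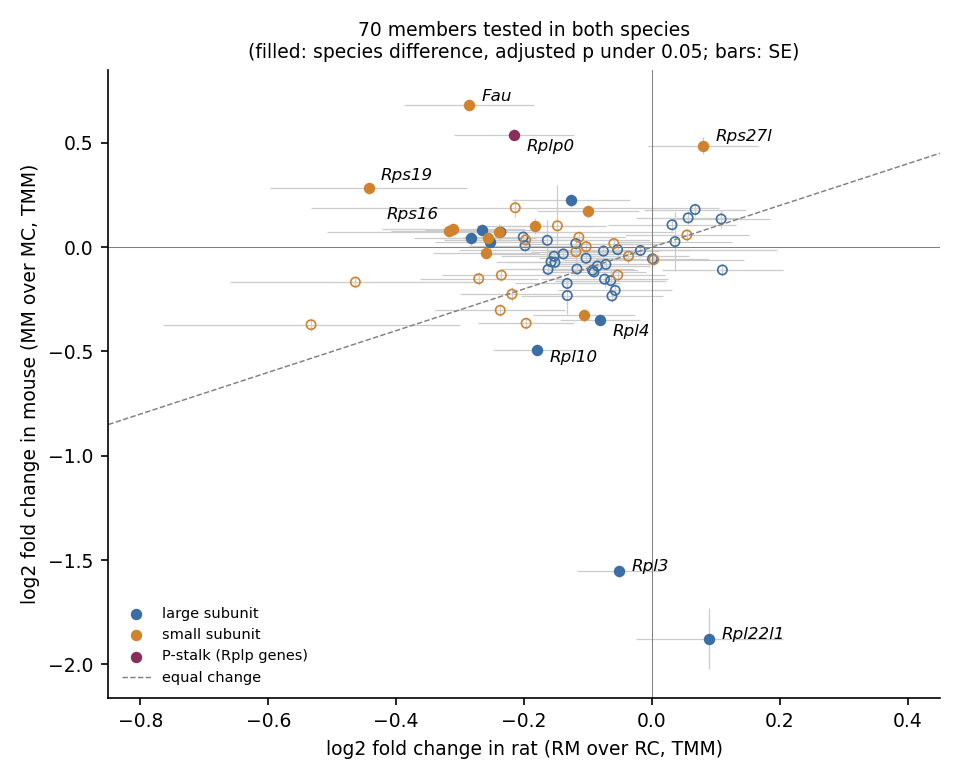
Log2 fold change with IL-1β in rat (x axis) and mouse (y axis) of the 70 members tested in both species, TMM-scaled, with SE bars; filled points had a difference between species at an adjusted p under 0.05 and the dashed line marks equal change. Rpl3 and Rpl22l1 lie at -1.55 and -1.88 in mouse with rat values near 0, and Fau, Rplp0 and Rps19 lie above 0 in mouse and below 0 in rat.

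Sequence at the start of the genes was described from RefSeq promoters of the rat (GRCr8, 250 bases before to 50 after the annotated start), which matched 62 of the 80 rat members. A start at C followed by 4 more pyrimidines was annotated in 17 of the 62 (27.4%) and in 2.44% of 19005 promoters of protein-coding genes. A run of at least 8 pyrimidines within 10 bases of the start stood in 51.6% against 6.78%. The letters CCGGAAG, a core read by ETS-family factors, were found on either strand in 29.0% of members and 11.2% of all, AAGATGG, a core of the YY1 motif, in 16.1% and 7.58%, and TATAAA in 14.5% and 13.1%. Windows of 30 bases before and 20 after the annotated start are shown for called members of each kind, with the run of pyrimidines from a C start in capitals:
Rpl31 (GRCr8 chr9:49143081-49143130, plus strand): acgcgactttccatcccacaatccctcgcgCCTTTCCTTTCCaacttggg
Rps15 (GRCr8 chr7:10068096-10068145, minus strand): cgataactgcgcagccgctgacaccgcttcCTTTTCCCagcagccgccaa
Rpl19 (GRCr8 chr10:83519034-83519083, plus strand): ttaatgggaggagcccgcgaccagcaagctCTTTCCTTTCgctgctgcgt
Rplp0 (GRCr8 chr12:46718371-46718420, minus strand): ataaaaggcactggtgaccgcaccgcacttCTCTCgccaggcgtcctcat
Rpl10a (GRCr8 chr20:6390503-6390552, plus strand): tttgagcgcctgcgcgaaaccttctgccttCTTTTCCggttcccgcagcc
Rps19 (GRCr8 chr1:89608658-89608707, plus strand): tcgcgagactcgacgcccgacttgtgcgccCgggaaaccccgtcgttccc
Rpl3 (GRCr8 chr7:113507971-113508020, minus strand): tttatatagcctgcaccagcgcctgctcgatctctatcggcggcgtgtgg

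Rpl31, Rps15 and Rpl19 were among the 8 members lower in rat, Rplp0 and Rpl10a changed in opposite directions in mouse (rat Rpl10a was not analysed here), and Rps19 and Rpl3 had no such run at the annotated start. The 17 members with the run had a median rat log2 fold change of -0.15 and the 41 tested members without it one of -0.11. Annotated starts can lie some bases from the start in use, so a window without the run says only that these letters are not at that position.

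Small nucleolar RNA genes, which guide the modification of ribosomal RNA and often lie in introns of ribosomal protein genes, were looked up in the mouse annotation. At least 1 lay on the same strand inside 30 of the 84 tested members (35.7%) and inside 1.49% of the other tested protein-coding genes. The median mouse log2 fold change was -0.08 over the members with such a gene and -0.03 over those without.

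Related gene lists were counted with the same edgeR test, to be read against all genes. In rat 18.3% of all genes were higher and 16.8% lower, and in mouse 37.4% and 37.7% under TMM and 25% and 54.7% by library size alone. Of 46 ribosome biogenesis genes tested in rat, 16 were higher and 0 lower with IL-1β, with a median log2 fold change of 0.20, beside -0.12 for the ribosomal protein genes. In mouse 19 of 48 were higher and 14 lower under TMM, and 9 higher and 30 lower by library size alone. The mouse genes with the smallest adjusted p were Eif6, which keeps new large subunits from joining, at 0.94 ± 0.040, Ubtf, a factor of ribosomal RNA transcription, at -0.72 ± 0.039, Sbds, which releases Eif6, at 0.71 ± 0.052, and Polr1a, the large subunit of RNA polymerase I, at 0.54 ± 0.044 (log2 fold change ± SE). None of these 4 passed in rat, where their log2 fold changes lay between 0.03 and 0.15.

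Translation factors and other genes known for TOP messages came next. Of 20 tested in mouse, 16 were lower and 3 higher, with a median of -0.22, beside 37.7% and 37.4% of all genes, and by library size alone 17 were lower and 2 higher, beside 54.7% and 25%. Eef1a1, the factor that brings transfer RNA to the ribosome, stood at 5377, 5318 and 5199 CPM in MC and at 3190, 3342 and 3208 in MM, a log2 fold change of -0.71 ± 0.023 (SE, adjusted p = 6.1e-37). Vim, Eif4b and Hnrnpa1 changed by -0.91, -0.66 and -0.53. In rat 3 of 18 were higher and 6 lower, with Eef1a1 at -0.18, Vim at -0.39, Hnrnpa1 at 0.43 and Eif4b at -0.14, of which Eif4b did not pass (adjusted p = 0.071).

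Initiation factors were split in mouse, with 10 of 26 higher and 10 lower under TMM and 7 higher and 18 lower by library size alone (all genes 37.4% and 37.7%, then 25% and 54.7%), and in rat 5 of 25 were higher and 1 lower. Eif1, which checks the start codon, was higher in mouse (0.80 ± 0.031) and lower in rat (-0.31 ± 0.064), and Eif5, Eif3b and Eif4a1 were higher in mouse by 0.73, 0.59 and 0.52 (log2 fold change ± SE). Of these 3, Eif4a1 alone passed in rat, at 0.27 ± 0.065 (SE). Regulators of ribosomal protein synthesis counted 14 higher and 3 lower of 19 in mouse under TMM, 6 and 8 by library size alone, and 3 and 6 of 18 in rat, against the same shares of all genes. Myc, a driver of ribosome production, stood at 28.8, 27.6 and 29.2 CPM in MC and at 81.1, 74.1 and 77.7 in MM (log2 fold change 1.44 ± 0.054), and rose by 0.34 ± 0.075 in rat (SE). Mxi1, which opposes Myc, rose by 2.94 ± 0.054 in mouse and 0.51 ± 0.12 in rat, and Ddit4, an inhibitor of mTOR, by 1.64 ± 0.039 and 0.36 ± 0.11 (SE). Eif4ebp1, which holds back cap-dependent initiation, was higher in mouse (1.37 ± 0.036) and lower in rat (-0.35 ± 0.11, SE).

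Mitochondrial ribosomal protein genes, which build the separate ribosome of mitochondria, counted 0 higher and 6 lower of 73 in rat by edgeR, with a median of -0.02. In mouse 15 of 77 were higher and 32 lower under TMM, and 5 and 60 by library size alone, beside 37.4% and 37.7%, then 25% and 54.7%, of all genes. Mrpl45 at 0.98, Mrps21 at 0.66 and Mrpl43 at 0.60 were higher there and Mrps16 at -0.89 was lower. None of these 4 passed in rat.

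**Figure D5:**
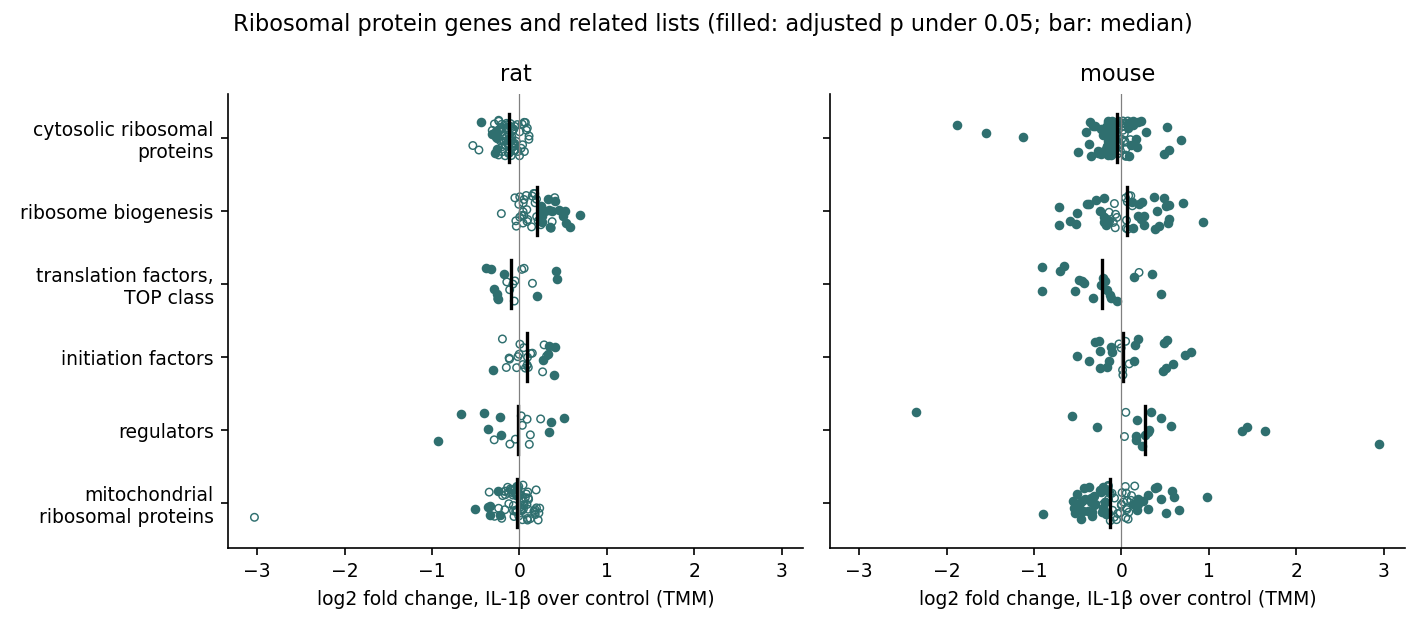
Log2 fold change with IL-1β (TMM) of cytosolic ribosomal protein genes and 5 related lists in rat and mouse; each point is a gene, filled where the adjusted p was under 0.05, and bars mark medians. Rat ribosome biogenesis genes have a median of 0.20 with 16 of 46 filled on the right of 0, and mouse translation factors have a median of -0.22; the rat point near -3 is Mrpl30 at -3.03, which did not pass (adjusted p = 0.064) and had 10.1 CPM in RC1 and at most 0.540 in each other rat library.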

How the data were processed

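RNA-seq libraries of 4 groups, 3 each, were used. Per the labels, the authors aligned reads with HISAT2 to GRCm38 or Rnor_6.0 and counted them with HTSeq 0.11.2; the deposited values are raw read counts and FPKM per Ensembl gene, 1 table a species. Members and gene lists were chosen with earlier results of these data known. Counts were fitted across all genes in edgeR 4.0.16 (R 4.3.3; quasi-likelihood test, TMM, low counts filtered with filterByExpr), with Benjamini-Hochberg adjustment over all genes and a threshold of 0.05. The difference between species was fitted on genes matched by symbol. Alternatives were library size, the members' summed counts, DESeq2 1.42.0, limma 3.58.1 on log2 FPKM, a replicate block and leaving out each library. Named members were the 5 highest and 5 lowest log2 fold changes among those called in a species, those with opposite calls, the 5 highest by FPKM, paralogs, members with known other roles and the 4 with the smallest p of the species difference in each direction; each list gave its 4 genes of smallest adjusted p. On simulated counts 95.5% of changed genes were recovered in rat (13291 genes) and 99.5% in mouse (14631). False calls were 5.94% and 5.71% of all calls. Only 199 tested genes were changed in each, with a median recovered log2 change of 1.50 in rat and 1.49 in mouse. Most member changes above are far smaller, and recovery at such sizes was not simulated. No 2 libraries were duplicates. Depth was 16841580 to 25903459 counts.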

Additional observations from a re-analysis of the deposited data

Results flagged for a closer look

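The IL-1β response of 14 named members differed between species by the edgeR test of the difference itself (adjusted p under 0.05, TMM scaling, 3 libraries a group). Some of them were named for the smallest p in this same test or for opposite calls, so the count of 14 partly follows from the naming. Of all 70 members tested in both species, 15 had the larger value in mouse and 5 in rat. Of all 10950 genes 31.4% and 32.3% did. Lower in mouse than in rat, as mouse minus rat log2 fold change, were Rpl22l1 at -1.97, Rpl3 at -1.50, Rpl10 at -0.31 and Rpl4 at -0.27. Higher in mouse were Fau at 0.97, Rplp0 at 0.76, Rps19 at 0.73, Rps27l at 0.41, Rps16 at 0.39, Rpl36 at 0.35, Rpl41 at 0.35, Rpl31 at 0.33, Rpsa at 0.30 and Rps3 at 0.27. By library size alone Fau, Rplp0 and Rps19 still had the larger value in mouse. The species also differ in strain, library depth and replicate spread, and the part of these in the differences was not tested.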

How the results depend on the processing

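Rat calls depended most on the processing. Of 8 members lower, library size alone gave 4, the members' summed counts 0 (median log2 fold change 0.0049), DESeq2 15, and limma on log2(FPKM + 1) or log2(FPKM + 0.1) 1 each. In that order, 4663, 3964, 4607, 4468 and 4499 of all 13303 rat genes were called in either direction. Scaling to the members' summed counts removes any shift of the whole family by construction, so it does not test such a shift. Leaving out 1 library gave 0 higher and 0 to 35 lower, a median of -0.19 to -0.04, 0 to 7 higher and 0 to 3 lower against the family, and a share difference of -0.320 to -0.0620 percentage points. Under TMM these fits called 3303 of 13491 (without RM2) to 6251 of 13431 (without RC1) rat genes in either direction. In mouse the 18 higher and 37 lower became 4 and 76 by library size, and 4 and 75 by limma with either pseudocount, with medians of -0.33 in each of these, and 0.0015 under the members' summed counts. Of all 14774 mouse genes, 11774 were called in either direction by library size, and 11614 and 11604 by the limma settings. Leaving out 1 mouse library gave 15 to 20 higher, 33 to 43 lower, a median of -0.0691 to -0.0331, 21 to 26 higher and 22 to 26 lower against the family, and a share difference of -0.755 to -0.676 percentage points, against -0.107 with totals multiplied by TMM factors. Under TMM these mouse fits called 10824 of 15181 (without MM2) to 10937 of 15238 (without MM3) genes in either direction. Under library size and both limma settings, mouse log2 fold changes turned to -0.20 for Rps16 and Rpl41, -0.23 for Rpsa, -0.15 for Rplp1, -0.17 for Rpl5, -0.11 for Rps3 and -0.14 for Rpl7l1. Under the same settings, in that order, they were -0.24, -0.23 and -0.24 for Rpl31, -0.25, -0.21 and -0.24 for Rpl13a, and -0.055 in each for Rpl36. By library size mouse lists gave 9 higher and 30 lower for biogenesis, 18 lower for initiation, 6 higher and 8 lower for regulators and 5 higher and 60 lower for mitochondrial ribosomal proteins. Members differing between species became 3 larger in mouse and 33 in rat by library size, 10 in mouse and 9 in rat under summed members, and 12 (without RC3, MC2 or MC3) to 29 (without RC1) in mouse and 4 to 9 (without RC3) in rat when 1 library was left out. Of these fits, only that by library size was counted over all genes, at 20% and 49.5%. Deviations of same-numbered libraries had correlations of -0.098 to 0.085 in rat and 0.001 to 0.015 in mouse. Between different numbers they were -0.19 to 0.16 in rat and -0.010 to 0.0055 in mouse. So few pairs cannot exclude a pairing, and libraries were treated as unpaired. A replicate block gave 12 lower in rat, 18 higher and 38 lower in mouse, and 1 lower against the rat family. With the block under TMM, 4534 of 13303 rat genes and 11047 of 14774 mouse genes were called in either direction. Apart from the scaling shift, the cause was not tested.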
